A study of Mus musculus with 6 samples.

Results

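The FoxO transcription factors, the sirtuin deacylases and the regulators of the mTOR kinase were examined in hematopoietic stem cells (HSCs) of mice given ferulic acid (FA), a plant phenol with antioxidant activity. The 10 genes were taken by name from a table of 27198 genes. They are Foxo1, Foxo3 and Foxo4, the sirtuins Sirt1, Sirt3 and Sirt7, the thioredoxin inhibitor Txnip, and Tsc1, Tsc2 and Mtor. The control (Ctrl) group received solvent, and the l-FA group was injected daily with FA into the peritoneum for 30 days, at a dose of 50 mg/kg. All mice were unirradiated wild-type C57BL/6 males aged 8 to 10 weeks. Bone marrow HSCs were sorted as lineage-negative, Sca-1-positive, c-Kit-positive, Flk2-negative and CD34-negative cells, and their RNA was amplified as cDNA and sequenced in 3 libraries per group. The number of mice behind each library is not given in the sources used here, so that n counts libraries and p-values measure only the spread between them, which may be technical.

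FoxO proteins are transcription factors that switch on genes of cell-cycle arrest, antioxidant defense and autophagy. When growth factors activate PI3K and AKT, AKT phosphorylates FoxO proteins and 14-3-3 proteins hold them in the cytoplasm. AKT also phosphorylates TSC2, the partner of TSC1 in the complex that restrains the small GTPase RHEB and thereby mTORC1, the kinase complex that drives protein synthesis and growth. Sirtuins use NAD to remove acyl groups from proteins, with SIRT1 mainly in the nucleus, SIRT3 in mitochondria and SIRT7 in the nucleolus. In HSCs, FoxO3, TSC1 and the sirtuins are known for their part in quiescence and in limiting reactive oxygen species.

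Each library held between 19287735 and 20380610 counts. Libraries of one group lay close together, with a median chi-square per gene of 0.89 to 1.09 between pairs of the same group and of 8.2 to 8.83 between pairs of different groups, where counting error alone gives 0.455. HSC marker genes were present, with Ctrl means from 2.14 (Slamf1) to 1067 (Kit) normalized CPM (counts scaled to library size). At an edgeR adjusted p under 0.05, 8 of 12 rose and 1 fell in l-FA libraries, against 25.5% and 25.0% of all genes tested. The 1 that fell was Hlf (117 to 94.7 CPM). Transcripts of the markers that the sort selects against were also abundant, with Cd34 at 1343 ± 18.4 CPM (SD, n = 3) in Ctrl and 1579 ± 38.2 in l-FA, and Flt3, which encodes Flk2, at 759 ± 3.43 and 1183 ± 19.8. Of 10 neutrophil and monocyte genes tested, 9 fell by more than 2-fold and 1 rose, and the summed level of the 11 listed was 23100 to 24000 CPM in Ctrl libraries and 6050 to 6350 in l-FA libraries. Most of this sum was Mpo (mean 18544 CPM in Ctrl and 4938 in l-FA) and Elane (3211 and 455). Prtn3 (715 and 228) and Ctsg (616 and 192) were also abundant and fell. The other genes that fell were low, such as S100a8 (9.60 and 3.29) and Camp (1.32 and 0.425). Lyz2 was the gene that rose (310 and 383). In the list, Ly6g alone was at 0 in every library of a group, namely l-FA. This shift moved with every difference between the groups given here, and its part in them was not tested. The summed levels of the erythroid genes (34.1 to 37.3 CPM in Ctrl and 38.1 to 42.4 in l-FA) and the B cell genes (55.3 to 55.6 and 62.8 to 65.6) were low, and the B cell genes Ms4a1 and Pax5 were at 0 in every l-FA library. Most of the B cell sum was Cd79b (53.0 and 61.7). The 4 T and NK cell genes listed summed to 542 to 564 CPM in Ctrl and 302 to 312 in l-FA, almost all of it Nkg7. The 5 megakaryocyte genes summed to 186 to 194 and 264 to 273, most of it Itga2b (173 and 240). Gp9 also rose (5.61 and 14.9), while Pf4, Ppbp and Gp1bb did not pass.

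The stretches upstream of the start sites of Tsc1, Foxo1 and Txnip are shown because these genes had the largest fitted fold changes among the 9 tested. They are the 250 bases before the start site from RefSeq, on the plus strand of GRCm38.p6, whereas gene positions below are those of the deposited table, for which the submitters' processing notes name GRCm39. A RefSeq window was found for 9 of the 10 genes, all but Foxo4. Capitals mark the FoxO site GTAAACA and a pair of CACGAG hexamers 5 bases apart, each searched on both strands. Spaced pairs of this kind are known as carbohydrate response elements, which the glucose-sensing factor MondoA and its partner MLX bind.
Tsc1 (chr2:28640983-28641232): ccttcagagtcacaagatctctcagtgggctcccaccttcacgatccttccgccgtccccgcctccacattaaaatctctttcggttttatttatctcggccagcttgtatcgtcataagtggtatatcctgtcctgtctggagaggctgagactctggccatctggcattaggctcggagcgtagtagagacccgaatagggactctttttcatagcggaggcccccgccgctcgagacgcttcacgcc
Foxo1 (chr3:52268087-52268336): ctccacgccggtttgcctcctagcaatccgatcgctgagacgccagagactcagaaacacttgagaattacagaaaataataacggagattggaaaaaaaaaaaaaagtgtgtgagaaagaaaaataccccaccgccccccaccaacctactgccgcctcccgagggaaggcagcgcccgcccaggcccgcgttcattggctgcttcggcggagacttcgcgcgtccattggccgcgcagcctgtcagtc
Txnip (chr3:96557707-96557956): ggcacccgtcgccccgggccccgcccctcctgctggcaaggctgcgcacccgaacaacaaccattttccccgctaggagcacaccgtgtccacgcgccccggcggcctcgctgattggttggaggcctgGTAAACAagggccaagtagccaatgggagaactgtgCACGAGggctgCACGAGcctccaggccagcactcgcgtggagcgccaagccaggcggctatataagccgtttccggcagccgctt
Of the 9 genes with a window, Txnip alone held the letters GTAAACA, starting at position -121 from the start site. These letters were in 3.17% of all 32851 mouse windows of this length. Txnip also held the paired hexamers, starting at -85, and it was the only 1 of the 32851 windows with this exact spelling and spacing. Other spellings of such elements were not searched, so this count does not show how rare the elements are. The E-box CACGTG, which reads the same on both strands and is found in 6.02% of windows, was present only in that of Sirt1 among these 9. CCAAT was present in 4 of the 9 genes and in 33.8% of windows, and TATAAA in 0 and in 12.4%, both searched on both strands. A match describes the letters and not a bound site.

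Expression was compared between l-FA and Ctrl with edgeR's quasi-likelihood test on the counts, and p-values were adjusted by Benjamini-Hochberg over the 16520 genes that passed a filter on low counts. Of the 10 genes, 9 passed this filter and Foxo4 did not. At an adjusted p under 0.05, 3 of the 9 rose (Tsc1, Sirt3 and Tsc2) and 2 fell (Foxo1 and Mtor), while Foxo3, Sirt1, Sirt7 and Txnip did not pass. The count of 5 in 9 was close to the background, since 50.5% of all genes tested passed (25.5% higher and 25.0% lower in l-FA). Above a 2-fold change as well, Tsc1 was the only one of the 9, against 6.68% of all genes higher and 5.1% lower. The groups did not overlap for the same 5 genes that passed, and did not overlap for 60.3% of all genes tested. In RNA of sorted populations, fewer cells that express a gene and less RNA per cell cannot be told apart.

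**Figure D1:**
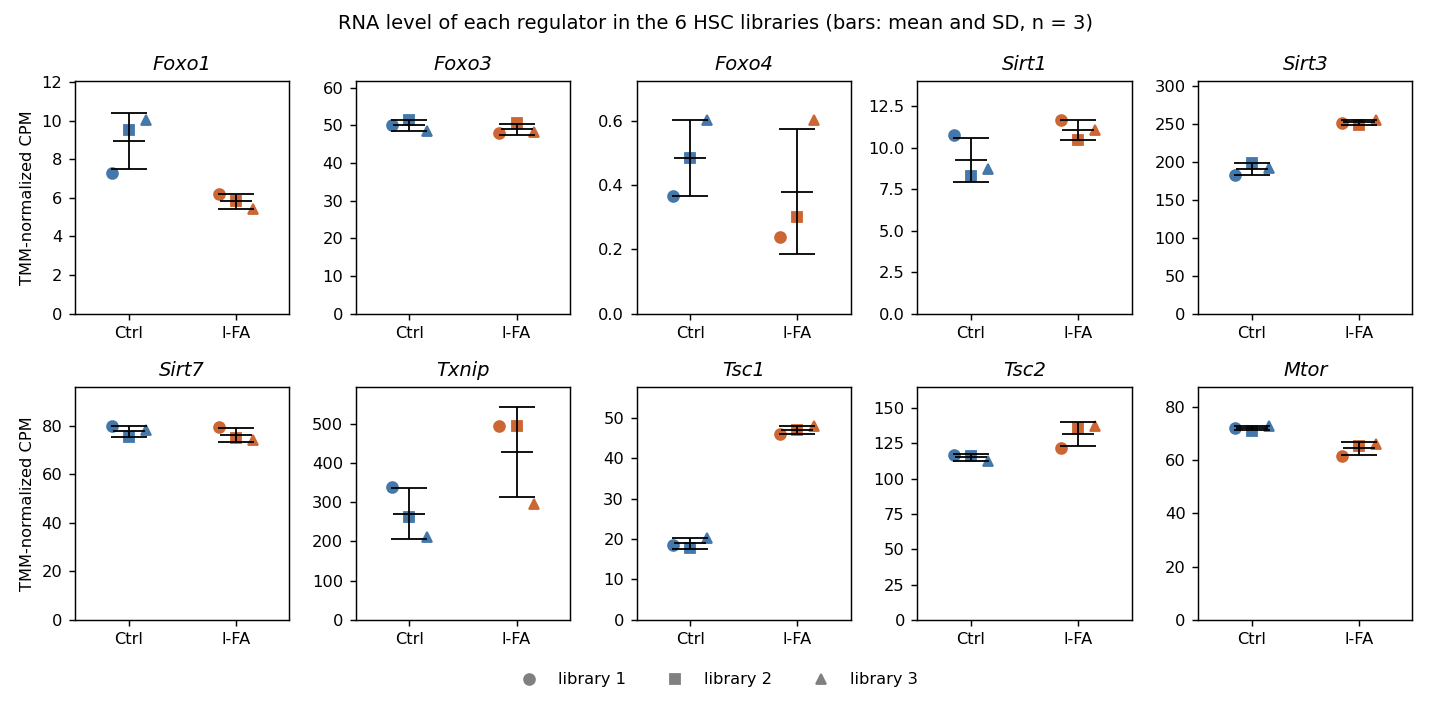
Level of each of the 10 genes in TMM-normalized CPM (vertical axes, each from 0) in 3 Ctrl and 3 l-FA libraries, with symbols for the library number and bars for the mean and SD. The groups are apart for Foxo1, Sirt3, Tsc1, Tsc2 and Mtor, and the Txnip libraries spread from 211 to 340 CPM in Ctrl and from 295 to 494 in l-FA.

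The TSC genes and Mtor all differed between the groups, Tsc1 and Tsc2 upward and Mtor downward. Tsc1 (ENSMUSG00000026812; chromosome 2, 28531240 to 28581179), which encodes hamartin, the subunit that stabilizes TSC2, had 18.6, 17.8 and 20.3 CPM in the Ctrl libraries and 45.9, 47.1 and 48.0 in the l-FA libraries. Every l-FA library was thus more than 2 times above every Ctrl library. The mean rose from 18.9 ± 1.28 to 47.0 ± 1.06 CPM (SD, n = 3), a 2.48-fold change (log2 fold change 1.31, standard error 0.063, edgeR adjusted p = 2.49e-05). Of all genes tested, 91.2% changed less in size. Tsc2 (ENSMUSG00000002496; chromosome 17, 24814790 to 24851604) encodes tuberin, the GTPase-activating subunit that acts on RHEB. It had 117, 116 and 112 CPM in Ctrl and 122, 136 and 137 in l-FA, so that the groups were apart but close at their nearest libraries. Its log2 fold change of 0.20 (standard error 0.052, edgeR adjusted p = 0.019) is 1.15-fold, and it did not pass without Ctrl library 3 (adjusted p = 0.0603). Mtor (ENSMUSG00000028991; chromosome 4, 148533068 to 148642140), the kinase of both mTOR complexes, had 72.0, 71.1 and 72.8 CPM in Ctrl and 61.5, 65.5 and 66.2 in l-FA. All l-FA libraries were below all Ctrl libraries, by a log2 fold change of -0.16 (standard error 0.041, edgeR adjusted p = 0.0161), and the gene did not pass without l-FA library 1 (adjusted p = 0.0569). Neither Tsc2 nor Mtor passed a test against a 1.2-fold change (edgeR adjusted p = 0.98 and 1), which Tsc1, Sirt3 and Foxo1 passed. Measured per length in FPKM, Tsc1 stood at 0.149, 0.144 and 0.170 of the Tsc2 level in the Ctrl libraries and at 0.353, 0.325 and 0.328 in the l-FA libraries. This within-library ratio therefore averaged 0.154 ± 0.0137 (Ctrl; SD, n = 3) and 0.335 ± 0.0157 (l-FA), with no overlap. The FPKM ratio of Mtor to Tsc2 went the other way, from 0.885 ± 0.0284 to 0.691 ± 0.0191.

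The genes whose levels ran most like that of Tsc1 over the 6 libraries, out of 11425 with a mean of at least 100 counts, were Fgfr1op2, Ccdc186 and Pgap4. Their centred log2 CPM lay at a root mean square distance of 0.0423, 0.0571 and 0.0608 from that of Tsc1. For Foxo1 the nearest were Prkar2a, Gm5841 and Fam91a1, at 0.0819, 0.0887 and 0.0897. Such a distance depends largely on the change between the groups. The log2 fold changes were 1.31, 1.34 and 1.29 beside 1.31 for Tsc1, and -0.61, -0.51 and -0.57 beside -0.62 for Foxo1. Shared regulation was not tested.

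Of the FoxO factors, Foxo1 fell, Foxo3 did not pass and Foxo4 was too low to test. Foxo3 (ENSMUSG00000048756; chromosome 10, 42057837 to 42152751), the member most studied in HSC quiescence, was the most abundant by FPKM. It had 50.1, 51.5 and 48.5 CPM in Ctrl and 48.0, 50.7 and 48.4 in l-FA, and the ranges of the groups overlapped. Its log2 fold change was -0.03, with a 95% interval from -0.14 to 0.08 (edgeR adjusted p = 0.607), so that a change above 1.2-fold lies outside the interval. Foxo1 (ENSMUSG00000044167; chromosome 3, 52175757 to 52260642), which governs metabolic and lymphoid genes in other cells, had 140, 177 and 200 counts in Ctrl and 130, 117 and 108 in l-FA. In CPM these were 7.30, 9.49 and 10.0 against 6.19, 5.83 and 5.41, all l-FA libraries below all Ctrl libraries. The log2 fold change was -0.62 (standard error 0.14, 95% interval from -0.96 to -0.28, edgeR adjusted p = 0.0104). Foxo4 (ENSMUSG00000042903; chromosome X, 100298134 to 100304479) had only 7, 9 and 12 counts in Ctrl and 5, 6 and 12 in l-FA. These values overlapped, and a difference was not detectable at this depth. Within a library, the FPKM of Foxo1 was 0.188 to 0.267 of that of Foxo3 in Ctrl and 0.145 to 0.167 in l-FA.

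Among the sirtuins, the mitochondrial Sirt3 changed and the other two members did not pass. Sirt3 (ENSMUSG00000025486; chromosome 7, 140443579 to 140462222), which deacetylates metabolic enzymes and superoxide dismutase 2, had 183, 198 and 192 CPM in Ctrl and 251, 249 and 256 in l-FA. The groups were well apart, and the log2 fold change was 0.40 (standard error 0.034, edgeR adjusted p = 0.000194), or 1.32-fold. Sirt1 (ENSMUSG00000020063; chromosome 10, 63154784 to 63217483), the deacetylase of FoxO proteins and p53, had 206, 155 and 173 counts in Ctrl and 245, 210 and 221 in l-FA. In CPM the highest Ctrl library (10.7) lay above the lowest l-FA library (10.5), and the log2 fold change of 0.26 did not pass (95% interval from -0.02 to 0.54, edgeR adjusted p = 0.111). Without Ctrl library 1 it was 0.38 and passed (adjusted p = 0.0235). Sirt7 (ENSMUSG00000025138; chromosome 11, 120509198 to 120516066), which regulates ribosomal DNA transcription and mitochondrial protein stress, had 79.9, 75.2 and 78.1 CPM in Ctrl and 79.4, 74.7 and 74.3 in l-FA. Its groups overlapped, with a log2 fold change of -0.03 and a 95% interval from -0.13 to 0.07 (edgeR adjusted p = 0.606).

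Several of these genes overlap other listed genes, and the sources used here do not say whether counting used strand. The interval of Sirt3 overlaps Psmd13 (log2 fold change -0.09) and Ric8a (0.12), with means of 2364 and 3145 counts and changes smaller than that of Sirt3. That of Tsc2 overlaps Pkd1 (-0.13) and that of Sirt7 overlaps Mafg (-0.05). The other overlapping genes of the 10 had mean counts of at most 26.3.

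Txnip had the highest level of the 10 and the widest spread among the 9 tested. It encodes an alpha-arrestin that binds and inhibits thioredoxin and lowers glucose uptake, and FoxO factors and MondoA are among its known activators. Txnip (ENSMUSG00000038393; chromosome 3, 96465273 to 96469199) had 340, 262 and 211 CPM in the Ctrl libraries and 494, 494 and 295 in the l-FA libraries. The l-FA library 3 lay below the Ctrl library 1, so that the groups overlapped although the mean rose from 271 ± 64.9 to 428 ± 115 CPM (SD, n = 3). The log2 fold change of 0.66 (standard error 0.25, 95% interval from 0.07 to 1.25) had an edgeR adjusted p of 0.0632. The gene passed without Ctrl library 1 (log2 fold change 0.85, adjusted p = 0.0405) and without l-FA library 3 (0.88, adjusted p = 0.0133). Its biological coefficient of variation in the fit was 0.215, larger than that of 90.0% of genes tested, against 0.0628 for Sirt3. The counts of Txnip were 4196 to 10369, so that counting error was a small part of this spread.

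**Figure D2:**
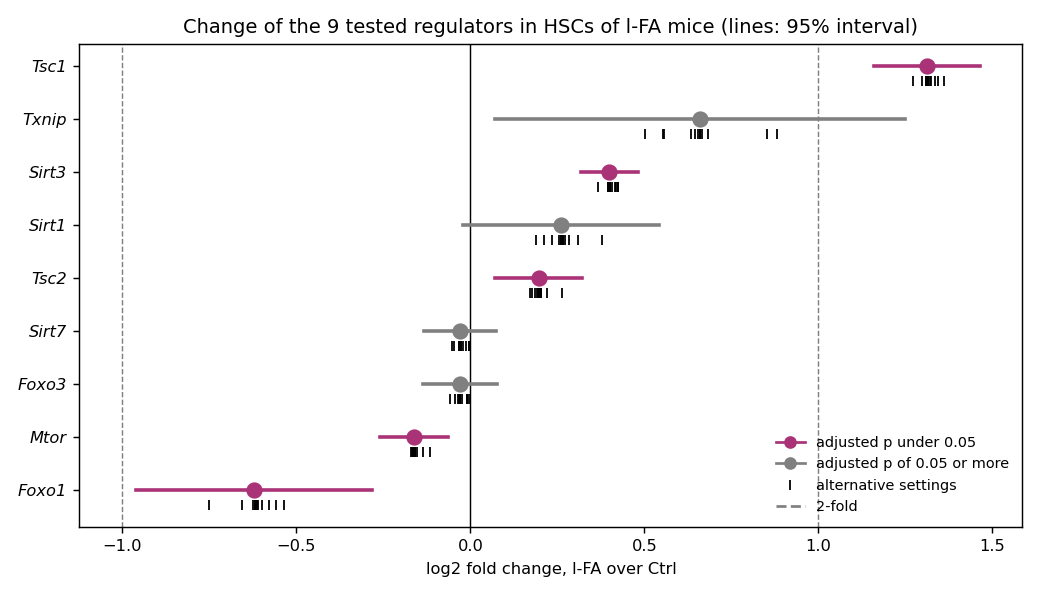
Log2 fold change of l-FA over Ctrl (horizontal axis) for the 9 tested genes, with circles for the estimate, lines for its 95% interval, purple for an adjusted p under 0.05 and ticks for 12 alternative settings. Tsc1 stands at 1.31, beyond the dashed line of 2-fold, Foxo1 at -0.62, and the ticks of Txnip spread from 0.50 to 0.88.

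Compared per length on the FPKM scale, the 10 genes covered a wide range of levels in the same HSCs. In Ctrl, Txnip stood at 38.1 ± 9.03 FPKM (SD, n = 3) and Sirt3 at 21.8 ± 0.849. Tsc2 (6.86 ± 0.116), Sirt7 (6.51 ± 0.213), Mtor (6.07 ± 0.104) and Foxo3 (4.34 ± 0.106) followed, each with libraries apart from those of the next. Tsc1 (1.06 ± 0.0774), Foxo1 (1.0 ± 0.165) and Sirt1 (0.853 ± 0.120) came lower, and neighbours in this order overlapped and were not told apart. Foxo4 was lowest at 0.105 ± 0.0262 FPKM. In l-FA the first 7 places were held by the same genes, but Tsc1, at 2.78 ± 0.0534 FPKM, was apart from Sirt1 (1.08 ± 0.0618), and Foxo1 (0.688 ± 0.0487) was below Sirt1 in every library.

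**Figure D3:**
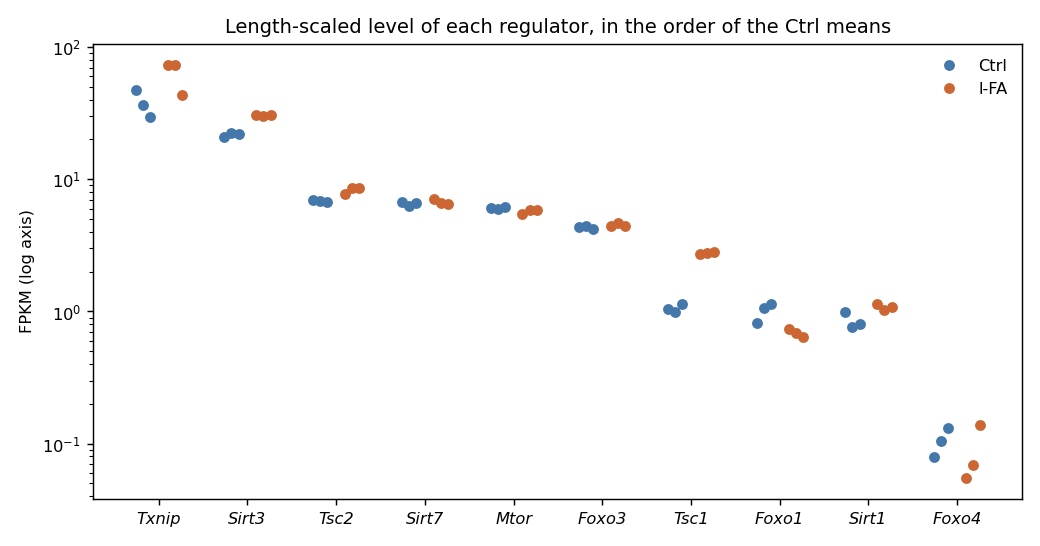
FPKM on a log axis in each of the 3 Ctrl and 3 l-FA libraries, with genes in the order of their Ctrl means. Tsc1 moves away from Foxo1 and Sirt1 in l-FA, from 1.06 to 2.78 FPKM, and Foxo4 is lowest in both groups, at 0.105 and 0.0868.

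The genes around these regulators were described by lists, each by its counts and its median log2 fold change, beside a median of 0.0035 over all genes tested and the background of 25.5% higher and 25.0% lower. Changes below are log2 fold changes of l-FA over Ctrl with edgeR adjusted p-values, and levels are CPM. Of the remaining sirtuins, Sirt4, a mitochondrial ADP-ribosyltransferase and lipoamidase, rose by 0.52 (adjusted p = 0.0248). It did not pass without Ctrl library 2, Ctrl library 3, l-FA library 2 or l-FA library 3 (0.48, 0.39, 0.46 and 0.55, adjusted p = 0.0761, 0.0566, 0.0692 and 0.0504). Sirt2, Sirt5 and Sirt6 did not pass, with changes from -0.20 to -0.02. Among 11 genes of mTOR complex subunits and Rheb, 4 rose and 3 fell (median 0.115). Rptor, the subunit that defines mTORC1, rose from 56.7 ± 0.294 to 75.4 ± 1.22 CPM (0.41, adjusted p = 0.000152). Prr5l, an mTORC2-associated protein, rose by 1.89 at a low level of 1.73 to 6.45 CPM (adjusted p = 6.36e-05), while its paralog Prr5 fell by 0.41 (adjusted p = 0.00412).

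On the amino acid branch of mTORC1, 4 of 28 genes rose and 8 fell (median -0.0224). Sesn1, a sestrin that inhibits GATOR2, an activator of mTORC1, and a p53 and FoxO target, rose by 0.56 (adjusted p = 0.000107). Slc7a5, the transporter that brings leucine into cells, fell from 77.1 ± 2.61 to 50.4 ± 1.25 CPM (-0.61, adjusted p = 8.47e-05). Among 14 mTORC1 substrates, 3 rose and 4 fell (median 0.101). Lpin1, a phosphatidate phosphatase that mTORC1 keeps out of the nucleus, rose by 0.68 (adjusted p = 0.00351), and the cap-binding protein gene Eif4e fell by 0.36 (adjusted p = 0.000194).

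Upstream of AKT, 7 of 22 PI3K and AKT genes tested rose and 5 fell (median 0.0344). Phlpp1, a phosphatase that removes an activating phosphate from AKT, rose from 1.82 ± 0.322 to 11.2 ± 1.29 CPM (2.63, adjusted p = 5.64e-05). The PI3K catalytic subunit gene Pik3ca fell from 17.8 ± 4.3 to 6.59 ± 0.55 CPM (-1.44, adjusted p = 0.00114). Pik3r3, a regulatory subunit gene near the detection limit at 1.26 CPM in Ctrl, fell by 1.79 (adjusted p = 0.00921). It passed the low-count filter through its Ctrl libraries, with 5, 12 and 5 counts in l-FA. Igf1r, the insulin-like growth factor receptor gene, fell by 0.43 (adjusted p = 0.000585). Among the genes named from the lists by their adjusted p or fold, Phlpp1, Pik3ca, Sirt4, Rptor, Sesn1, Eif4e, Skp2, Nmnat3, Arrdc3 and Hk2 each overlap at least 1 other listed gene. Genes named after their values were seen were not examined for overlap. In the list of LKB1 and AMPK, the energy-sensing kinase that activates TSC2, 1 of 10 genes tested rose and 3 fell (median 0.0575). The AMPK beta subunit gene Prkab2 rose by 1.04 (adjusted p = 0.000278). Cab39, which encodes the LKB1 scaffold MO25, fell by 0.86 (adjusted p = 0.000122). The low-level catalytic subunit gene Prkaa2 fell by 2.21 (adjusted p = 0.00207). Prkaa2 passed the low-count filter through its Ctrl libraries, with 19, 11 and 6 counts in l-FA.

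Of 31 FoxO target genes tested, 12 rose, 4 fell and 15 did not pass (median 0.215). About as large a share passed as the 50.5% of all genes, but more rose than fell, where all genes split into 25.5% higher and 25.0% lower. This difference in direction was not tested. Ccng2, an atypical cyclin that slows the cell cycle, had 97.6, 101 and 96.8 CPM in Ctrl and 149, 150 and 152 in l-FA, and rose by 0.62 (adjusted p = 2.48e-05). The 3 that passed both the adjusted p and 2-fold fell, namely Cited2, Klf2 and Pdk4. Of these, Pdk4 passed the low-count filter only through its Ctrl libraries. Cited2, a CBP/p300-binding regulator needed in HSCs, went from 28.0 ± 4.17 to 8.74 ± 0.336 CPM (-1.68, adjusted p = 0.000103), and the quiescence factor gene Klf2 from 6.81 ± 0.481 to 3.33 ± 0.118 CPM (-1.03, adjusted p = 0.000346). Pdk4, the pyruvate dehydrogenase kinase, had 98 counts in all over the Ctrl libraries and 4 over the l-FA libraries, a ratio of 0.0386 with an exact 95% binomial interval from 0.0103 to 0.102 that covers counting error only. The list holds direct targets from several tissues, and 5 of its genes also stand in the lists above. Of 15 FoxO partners and modifiers, 2 rose and 7 fell (median -0.189). The 14-3-3 epsilon gene Ywhae fell by 0.25 (adjusted p = 0.00024), and Skp2, the ubiquitin ligase subunit that targets FOXO1, rose by 0.41 (adjusted p = 0.00124).

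For NAD, the cofactor of sirtuins, 3 of 11 genes tested rose and 2 fell (median 0.118). Cd38, which encodes an NAD-consuming ectoenzyme, rose from 1.75 ± 0.292 to 8.43 ± 0.632 CPM (2.27, adjusted p = 6.74e-05), and Nmnat3, a mitochondrial NAD synthesis gene, fell by 0.41 (adjusted p = 0.000721). In the list of the thioredoxin system, MondoA and alpha-arrestins, 2 of 13 genes tested rose and 5 fell (median -0.0954). Arrdc3, a relative of Txnip, rose by 0.30 (adjusted p = 0.000928), and the hexokinase gene Hk2 fell by 0.66 (adjusted p = 4.14e-05). Named after their values were seen, Mlx (-0.83), Mlxip, which encodes MondoA (-0.58), and Arrdc4, the other classical MondoA target (-0.28), all fell (adjusted p = 6.96e-05, 0.00237 and 0.00233). Unlike Txnip, Arrdc4 varied little within its groups, with 54.5, 56.0 and 55.9 CPM in Ctrl and 43.5, 46.1 and 47.2 in l-FA.

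**Figure D4:**
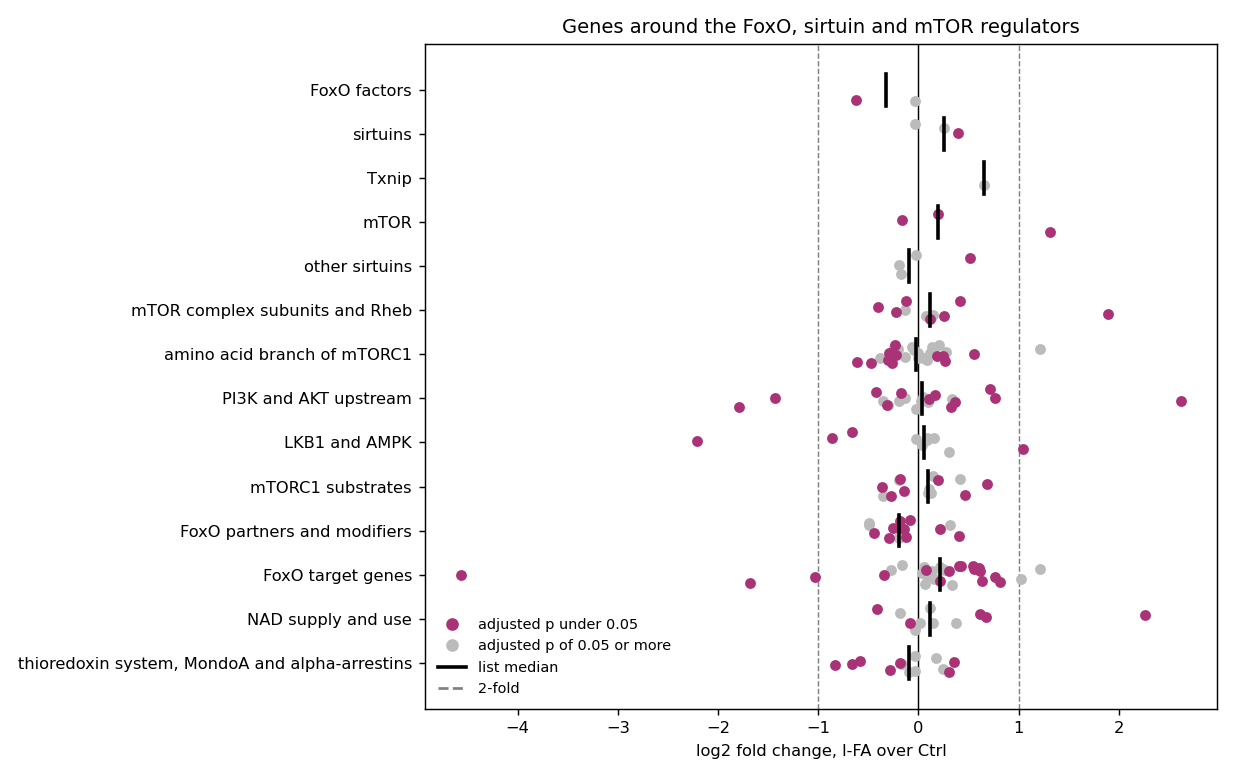
Log2 fold change of l-FA over Ctrl (horizontal axis) for every tested gene of each list, with purple points for an adjusted p under 0.05, grey points otherwise, black bars for the list median and dashed lines at 2-fold. Most points lie within 2-fold, Phlpp1 stands farthest right at 2.63, and the point farthest left is Pdk4, whose fitted value rests on 4 counts in l-FA and is not given as a fold.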

How the data were processed

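The authors deposited a table of 27198 genes with raw counts per gene, not normalized, and FPKM values (per length and sequencing depth) made by the authors, for each of 6 libraries. The submitters' processing notes name HISAT2, SAMtools 1.3.1, StringTie, edgeR and GRCm39, without roles, and the study's methods name DESeq2 for differential expression. The gene annotation and the strand setting are not given in the sources used here. Samples were grouped by their titles, 3 Ctrl and 3 l-FA.

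Counts were tested across all genes with edgeR 4.0.16 in R 4.3.3 (TMM, filterByExpr, glmQLFit, glmQLFTest), with Benjamini-Hochberg adjustment over 16520 genes. The standard error is the size of the log2 fold change divided by the square root of F, and its 95% interval uses the moderated degrees of freedom. CPM were TMM-normalized. FPKM were used to compare levels between genes and are given for both groups, with no test. The 2 scales can differ between groups, as for Foxo3, with means of 4.34 (Ctrl) and 4.49 (l-FA) FPKM but 50.0 and 49.0 CPM. For likeness, 0.1 was added to CPM before the log. The code was tested on simulated data. The alternatives were scaling by RLE or the upper quartile, DESeq2 1.42.0, 2 other filters, a block for the replicate number, leaving out each library, and a test against a 1.2-fold change. The 10 genes and the lists were chosen with earlier results of these data known. From each list, the text names genes past an adjusted p of 0.05 and 2-fold and, at a mean of at least 5 CPM, the gene with the smallest adjusted p in each direction; others are said to be named after their values were seen. In the promoter windows, motifs were searched by exact letters on both strands. Total counts per library and the number of libraries set the precision, and since PCR copies carry no molecular identifiers, intervals for counts cover counting error only.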

Additional observations from a re-analysis of the deposited data

How the results depend on the processing

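The 5 genes that passed among the 9 tested also passed under DESeq2, RLE scaling, upper-quartile scaling and both other filters, and from 4 to 7 passed with 1 library left out. The direction of Tsc1, Sirt3, Tsc2, Foxo1, Mtor, Txnip and Sirt1 was the same under all alternatives run. A test against a 1.2-fold change left 3 of the 9 genes (Tsc1, Sirt3 and Foxo1) and 4516 of all genes, where the main test gave 8336. Above 2-fold, 1946 genes passed in all, 3335 without a filter on low counts and 930 where every library had to reach 10 counts, because these filters change which genes are tested; Tsc1 was the only one of the 10 in each. Leaving out 1 library gave 7459 to 7733 genes in all, 2035 to 2086 above 2-fold, and 1 of the 10. Over all genes tested, same-numbered libraries did not deviate together (correlations of 0.0187, -0.0132 and -0.05), and nothing in the labels pairs them. Whether single genes differ from this was not tested. Txnip was lowest in library 3 of both groups (211 CPM in Ctrl and 295 in l-FA), and its result with a block depends on this numbering. With the replicate number as a block, 7405 genes passed, 1852 above 2-fold, and 6 and 1 of the 9 genes, the added one being Txnip (log2 fold change 0.65, edgeR adjusted p = 0.00802, range over its alternatives 0.00802 to 0.168). Foxo4, fitted only without a filter on low counts or where leaving out a library let it pass that filter, had adjusted p-values from 0.413 to 0.886. Of 30 further genes named from the lists, 9 values across the alternatives lost the call (5 against 1.2-fold and 4 for Sirt4 without 1 library), 4 gained it (Map1lc3b and Sesn3 without 1 library) and 374 did neither, with 0 reversed. Depth limits Foxo4, Pik3r3, Prkaa2 and Pdk4, whose counts are low. Pik3r3, Prkaa2 and Pdk4 were not tested where every library had to reach 10 counts. Genes that rose were also low in Ctrl, with 42, 30 and 33 counts for Phlpp1 and 40, 29 and 32 for Cd38. Prr5l had 32, 33 and 35 counts in Ctrl.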

Other observations

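Some genes of the lists had a single library far from the others of its group, and were named after their values were seen. Map1lc3b, the autophagosome protein LC3B, had 132 to 134 CPM in Ctrl and 472, 169 and 171 in l-FA, and its groups did not overlap with or without l-FA library 1. Its log2 fold change was 1.03 with all libraries (edgeR adjusted p = 0.075) and 0.37 without l-FA library 1 (adjusted p = 0.000629), and it also passed without l-FA library 2 (1.29, adjusted p = 0.0416) or 3 (1.28, adjusted p = 0.0441). Sesn3, a sestrin and FoxO target, had 7.40, 3.43 and 5.82 CPM in Ctrl and 3.24, 18.1 and 17.3 in l-FA. It passed only without l-FA library 1 (log2 fold change 1.68, edgeR adjusted p = 0.00687, against 1.21 and 0.152 with all libraries).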
